A study of Mus musculus with 13 samples.

Results

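The proteasome subunit genes are the 36 of 53465 mouse genes of the expression table whose symbol is Psma, Psmb, Psmc or Psmd followed by a number, chosen by name only and with the immunoproteasome genes Psmb8, Psmb9 and Psmb10 kept apart. They comprise 16 genes of the core particle (8 of the alpha ring and 8 of the beta ring), 17 of the regulatory particle (6 ATPases and 11 non-ATPases) and 3 that carry a Psmd name but encode assembly chaperones, Psmd5, Psmd9 and Psmd10. RNA sequencing of bulk tissue compared 3 untreated ovaries of wild-type mice (WT) with 10 untreated end-point ovarian tumors of genotype Myc;p53-/- (MP). MP EPO-GEMM tumors were grown by electroporating the ovary and adjoining tissue of wild-type C57BL/6 females with a MYC transposon, the Sleeping Beauty transposase, and Cas9 with a guide RNA against Trp53. The comparison asks how the tissue of these tumors differs from the normal organ. The age in the labels, 8 to 12 weeks, is that of the mice at electroporation, so the end-point tumors came from older animals, and the protocol gives no separate age for the WT ovaries. The electroporation does not choose a cell type, and the tumors are compared with the whole organ rather than with the cells they arose from.

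The proteasome degrades proteins tagged with ubiquitin. The core particle is a barrel of alpha rings, which gate the entry, around beta rings, in which Psmb5, Psmb6 and Psmb7 carry the chymotrypsin-like, caspase-like and trypsin-like active sites. The regulatory particle binds ubiquitin, removes it, and unfolds and threads the substrate with a ring of ATPases, and interferon exchanges the active beta subunits for Psmb8, Psmb9 and Psmb10.

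Values were in TPM, a unit in which the reads of a gene are divided by the length of its merged exons and scaled so that each library sums to the same total. The reads recovered from the table numbered 31445004 to 64013840 in the 3 WT libraries and 3892690 to 19906507 in the 10 tumors, and every tested member apart from Psma8 had at least 85 reads in every library. Whole-tissue signals set the frame for the members. The median log2 fold change over all 17277 genes tested was -0.58, granulosa markers summed to 3225 to 5990 TPM in WT ovary and 4.46 to 1507 TPM in the tumors, and theca and luteal markers to 25024 to 28130 TPM against 7.44 to 824 TPM. No granulosa, luteal or oocyte marker was at 0 in all tumors, and their part in any difference below was not tested. In bulk tissue, fewer cells of a type and less RNA per cell cannot be told apart. Trp53 stood at 80.7 to 85.4 TPM in WT ovary and at 4.30 to 26.0 TPM in 9 tumors, whereas the library labelled MP10 had 187 TPM. An edit by Cas9 need not remove the RNA, so this row checks the labels only in part. The row for Myc held 126 to 129 TPM in WT and 7.09 to 419 TPM in MP. The sample descriptions carry a code that WT 1 to 3 share with MP 1 to 3, whereas MP 4 to 6 and MP 7 to 10 carry codes of their own, so that WT and MP can be compared within a label code only for MP1 to MP3. MP2 stood apart from the others, with 55.1% of its TPM in its 10 most abundant genes against 7.92% to 20.6% in the other tumors.

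No proteasome subunit gene passed the threshold in either direction. The filter of at least 1 TPM in at least 3 libraries kept 35 members. With limma and Benjamini-Hochberg adjustment over all genes tested, at a threshold of 0.05, 0 members were called higher in the tumors and 0 lower, beside 2.51% of all genes called higher and 14.3% called lower. At an unadjusted P value under 0.05 limma gave 1 member higher, Psma7, beside 5.63% of all genes, and 0 lower, beside 27.4%. The adjusted counts were 0 and 0 without MP2, beside 3.68% of all genes higher and 13.9% lower, and 0 and 0 without MP10, beside 2.71% and 17.2%. Leaving out MP3, MP5 or MP9 gave 1 member higher, Psma7, beside 2.16% to 3.08% of all genes, and 0 lower, beside 12.0% to 18.9%. The median log2 fold change of the 35 members was 0.11, and 32 of them lay above the median of all genes. With quantile normalization 26 of the 35 did, and their median was 0.20 beside 0.08 for all genes. Psmb11, the thymus-specific beta subunit, was the remaining member and did not pass the filter, at 0.0214 to 0.0906 TPM in WT and 0 to 0.165 TPM in MP. Together the 36 members took 0.664% to 0.780% of all TPM in WT ovary and 0.596% to 1.502%, with a median of 0.789%, in the tumors.

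**Figure D1:**
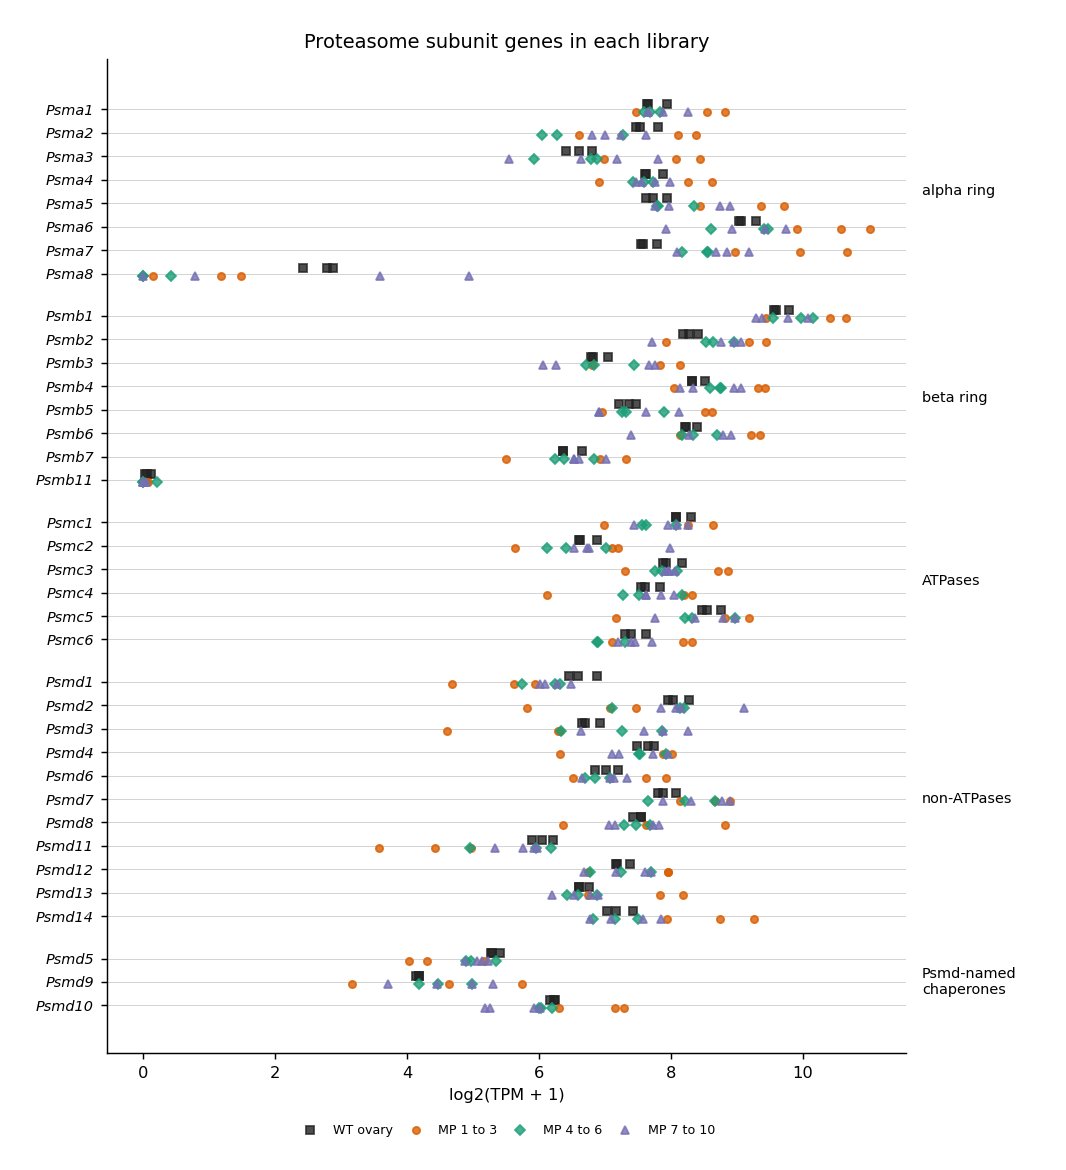
Expression of the 36 proteasome subunit genes in each of the 13 libraries, as log2(TPM + 1), grouped by role. Squares are the 3 WT ovaries and the other symbols the 10 MP tumors in the 3 sets that share a label code; WT points of most genes sit inside the wider range of the tumors, and Psma7 is the member whose 10 tumor points all lie to the right of its WT points.

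The tumors varied far more than the WT ovaries. MP1 and MP3 held the highest value of 12 and 16 of the 35 tested members, MP2 the lowest of 18, and MP9 and MP10 the lowest of 6 and 5. The median TPM of all tested genes was 14.7 to 16.2 in WT and 2.35 to 14.7 in the tumors, with MP1 to MP3 at 2.35 to 4.41. The members are therefore described below for all tumors, for MP1 to MP3 against the WT ovaries that share their label code, and for the other 7, a subset chosen after seeing the data. For MP4 to MP10, label code and condition cannot be told apart.

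The active sites come first. Psmb5 (chr14:54614119-54618022) was at 163, 176 and 148 TPM in WT 1 to 3, and at 119 to 395 TPM, with a median of 177, in the tumors. Its tumors were above every WT ovary in 5 cases and below in 3, and its log2 fold change of 0.26 ± 0.39 (SE, n = 3 and 10, limma, adjusted P = 0.646) was smaller than its error. Psmb6 (chr11:70525367-70527858) was at 298, 335 and 295 TPM in WT and 168 to 653 TPM, median 367, in MP. Its log2 fold change was 0.25 ± 0.36 (limma, adjusted P = 0.631), again with tumors on both sides of the WT range. Psmb7 (chr2:38588036-38644087) was at 81.4, 99.2 and 81.7 TPM in WT and 44.0 to 159 TPM, median 94.1, in MP, and its log2 fold change was 0.13 ± 0.34 (limma, adjusted P = 0.809). None of the 3 genes of the catalytic subunits moved beyond the spread of the tumors. About 12.1% of the exonic bases of Psmb5 are shared with the microRNA gene Mir686 on the same strand, and 11.8% of those of Psmb7 with Nek6 on the opposite strand, so reads there cannot be assigned with certainty. The same limit holds for Psmd1 (7.61%, Gm21972, same strand), Psmc3 (8.25%, Slc39a13, opposite strand) and Psmd13 (10.1%, Sirt3, opposite strand).

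Across the beta ring all 7 tested genes had positive log2 fold changes, from 0.13 for Psmb7 to 0.43 ± 0.34 for Psmb2, with a median of 0.26 and no call. Psmb2, a structural beta subunit without an active site, was at 288, 340 and 307 TPM in WT and 209 to 693 TPM, median 462, in MP, and 8 of 10 tumors were above the WT range.

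The alpha ring held both extremes of the core particle. Psma7 (chr2:180036373-180042433), which encodes a structural subunit of the ring, was at 185, 219 and 189 TPM in WT and at 273 to 1621 TPM, median 434, in the tumors. All 10 tumors were above all 3 WT ovaries, which held for 1 of the 35 tested members and for 3.02% of all genes tested, whereas 0 members and 16.4% of all genes had every tumor below every WT ovary. The log2 fold change of Psma7 was 1.33 ± 0.45 (limma, P = 0.00984, adjusted P = 0.0553), just short of the threshold. It passed within the shared label code (log2 fold change 2.23, limma, adjusted P = 0.00405) and in MP4 to MP10 (0.95, limma, adjusted P = 0.0209). It did so too with limma-voom on the recovered reads (2.06, adjusted P = 0.0448), and it lost or gained the call with the choice of libraries: it passed without MP3, MP5 or MP9 and missed without any of the other 7 tumors or any WT ovary, for an adjusted P of 0.0349 to 0.185 (limma).

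Psma8, the alpha subunit of the testis and germ-cell proteasome, had the lowest log2 fold change of the ring, -1.44 ± 0.90 (limma, adjusted P = 0.272). It was at 5.89, 4.36 and 6.33 TPM in WT and below 2 TPM in 8 tumors, 3 of which were listed at 0, while MP8 held 29.6 TPM and MP10 11.0 TPM. Oocyte markers, which summed to 248 to 368 TPM in WT, were at 1.38 to 21.99 TPM in the tumors, and the part of oocytes in the Psma8 level was not tested. The other alpha subunit genes ran from -0.47 for Psma2 to 0.72 for Psma5, and the ring's median was 0.29 with no call. Psma5 and Psma6, picked out here after their values were seen, showed how far the tumors diverged. Psma6 was at 521 to 621 TPM in WT, at 959 to 2062 TPM in MP1 to MP3, and at 241 to 855 TPM in the other 7 tumors.

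**Figure D2:**
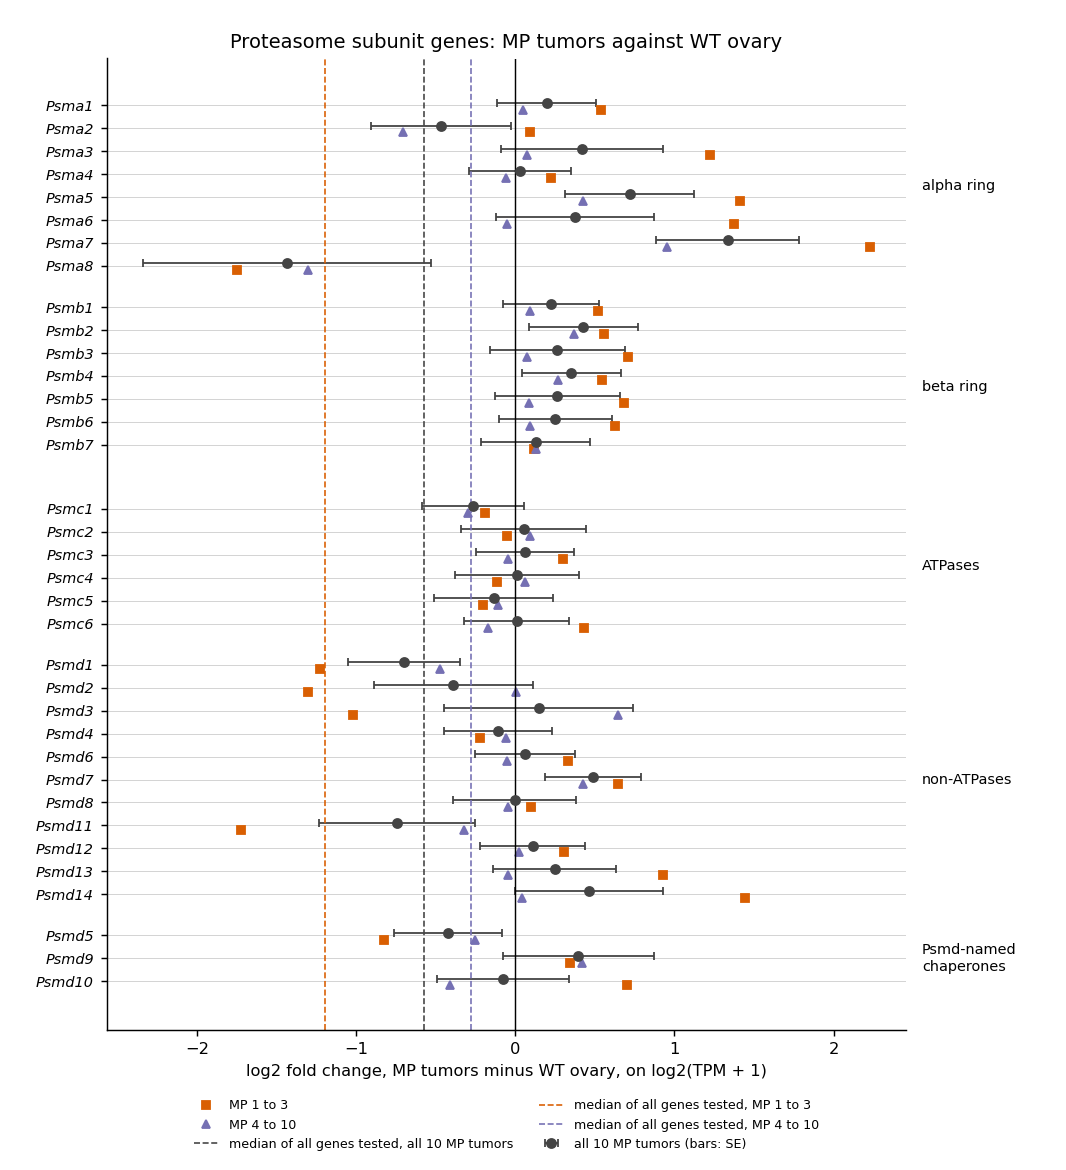
Log2 fold change (MP minus WT, on log2(TPM + 1)) of the 35 tested members with SE bars for all 10 tumors, and the same for MP1 to MP3 (squares) and MP4 to MP10 (triangles). Dashed lines are the medians of all 17277 genes in the same colors, -0.58 for all tumors, -1.19 for MP1 to MP3 and -0.28 for MP4 to MP10; Psma7 lies farthest to the right at 1.33, and the squares of Psmd2 and Psmd1 lie close to the line of their own set.

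The ATPases of the regulatory particle lay close together. Their 6 log2 fold changes ran from -0.27 ± 0.32 for Psmc1 to 0.06 ± 0.31 for Psmc3, with a median of 0.01. Psmc1 was at 270, 314 and 270 TPM in WT and 126 to 396 TPM, median 258, in MP. Psmc3 was at 233, 286 and 242 TPM in WT and 157 to 462 TPM, median 248, in MP, so the WT values lay within the range of the tumors for both genes. The sign of Psmc1 turned under 3 of the alternative scalings and that of Psmc3 when MP1 or MP3, or MP1 to MP3 together, were left out.

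The 11 non-ATPase genes had a median log2 fold change of 0.06 and spread more widely. Psmd7, a scaffold partner of the deubiquitinase subunit Psmd14, was the highest at 0.49 ± 0.30 (limma, adjusted P = 0.264), with 223, 268 and 234 TPM in WT and 199 to 473 TPM, median 360, in MP. Psmd11 (chr11:80428615-80473248), a scaffold subunit of the lid, was the lowest at -0.75 ± 0.49 (limma, adjusted P = 0.292), with 65.0, 73.5 and 58.2 TPM in WT and 10.9 to 71.8 TPM, median 46.1, in MP. MP1 to MP3 were at 10.9 to 30.5 TPM and the other tumors at 29.9 to 71.8 TPM. Psmd1, Psmd2 and Psmd3, singled out after their values were seen, were also lower in MP1 to MP3, with overlap for Psmd1 and Psmd2. Psmd2, which with Psmd1 forms the scaffold of the base, was at 248 to 308 TPM in WT, at 55.4 to 176 TPM in MP1 to MP3 and at 137 to 553 TPM in the other tumors. Psmd3, a lid subunit, was at 99.2 to 121 TPM in WT, at 23.4 to 78.8 TPM in MP1 to MP3 and at 79.9 to 305 TPM in the other tumors. Psmd1 was at 86.6 to 116 TPM in WT, at 24.7 to 60.4 TPM in MP1 to MP3 and at 52.7 to 88.9 TPM in the other tumors, with 9 of 10 tumors below the WT range (log2 fold change -0.70 ± 0.35, limma, adjusted P = 0.178).

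The 3 Psmd-named chaperones, which help to assemble the ATPase ring, had a median log2 fold change of -0.08. Psmd9 was the highest at 0.40 ± 0.47 (limma, adjusted P = 0.564), with 16.6 to 17.2 TPM in WT and 7.97 to 52.5 TPM in MP. Psmd5 was the lowest at -0.42 ± 0.34 (limma, adjusted P = 0.387), with 37.8 to 41.6 TPM in WT and 15.3 to 39.8 TPM in MP, and its sign turned under 4 other scalings. About 25.5% of the exonic bases of Psmd9 overlap Gm26745 on the opposite strand, and whether the counting used strand is not given in the sources used here.

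Within the label code that both groups share, members did move, in both directions. Of 35 members, 5 rose in MP1 to MP3, beside 6.44% of all genes, namely Psma3, Psma5, Psma6, Psma7 and the deubiquitinase gene Psmd14. A further 4 fell, beside 57.3% of all genes, namely Psma8, Psmd1, Psmd2 and Psmd11 (limma, adjusted P under the threshold). The median of all genes in this fit was -1.19, so that Psmd2 and Psmd1 lay close to it. Psma5 rose by 1.41 on the log2 scale (limma, adjusted P = 0.0174), Psma6 by 1.37 (adjusted P = 0.0138) and Psmd14 by 1.44 (adjusted P = 0.0168). Psmd11 fell by 1.73 on the log2 scale (limma, adjusted P = 0.00689) and Psmd2 by 1.30 (adjusted P = 0.042). With label code as a covariate 5 rose, beside 5.17% of all genes, and 4 fell, beside 49.4%, but Psma3 and Psma8 were no longer called and Psmd13, higher, and Psmd5, lower, were. With the replicate block 4 rose, beside 6.34% of all genes, and 2 fell, beside 56.9%. Psma3, Psmd1 and Psmd2 were not called with the block. In MP4 to MP10 Psma7 alone passed, 1 member higher beside 4.68% of all genes and 0 lower beside 13.5%, and the log2 fold change of Psmd14 there was 0.04 and that of Psmd11 -0.33. The difference between the tumors of the separate codes was not tested.

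Set against each other, the core genes stood higher in the tumors than the regulatory genes did, relative to WT. The median log2 fold change was 0.26 for 15 core genes and 0.01 for 17 regulatory genes, beside -0.58 for all genes. Within the shared label code these medians were 0.56 for the core, -0.05 for the regulatory genes and -1.19 for all genes. In MP4 to MP10 they were 0.08 for the core, -0.04 for the regulatory genes and -0.28 for all genes, and the alpha ring was at -0.001. In WT ovary the median TPM of the core genes was 194 to 234 and that of the regulatory genes 157 to 186. In the tumors these medians were 176 to 452 and 90.8 to 289. The log2 ratio of the core to the regulatory median was 0.29 ± 0.05 (SD, n = 3) in WT and 0.50 ± 0.24 (SD, n = 10) in MP, a difference of 0.21, and 8 of 10 tumors were above and 1 below the WT range. MP2 and MP1 had the highest ratios, 0.96 and 0.86, and the difference was 0.16 without MP2, 0.17 without MP1, 0.44 within the shared label code and 0.11 in MP4 to MP10. With TPM summed rather than taken as a median the difference was 0.33, more than 1.5 times larger, and the tumors then ranged from 0.05 to 1.19. These ratios are descriptions of the members and carry no test.

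**Figure D3:**
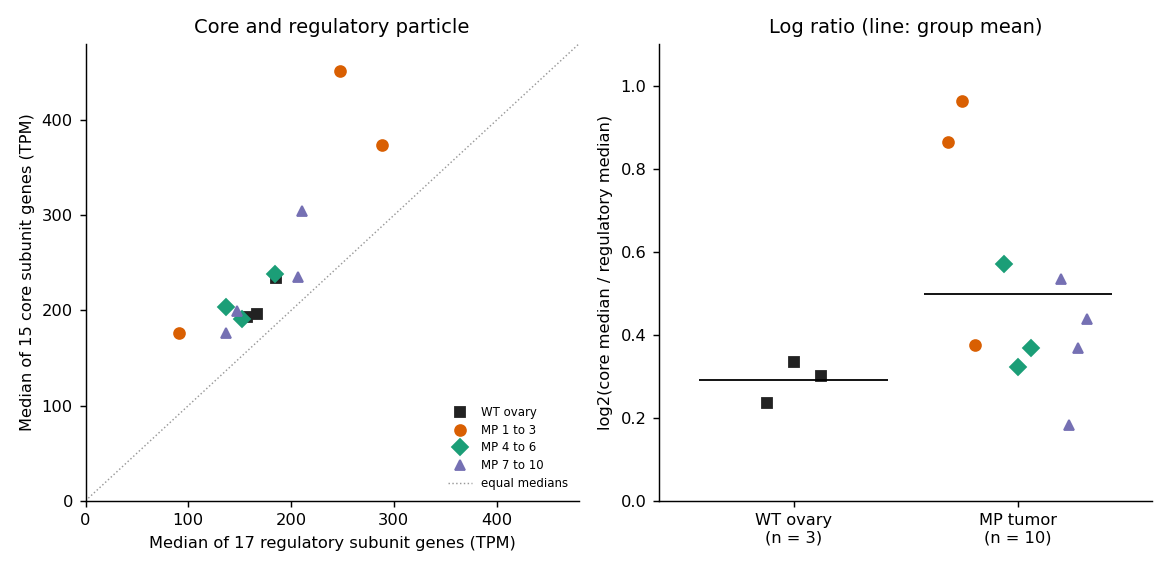
Left, median TPM of the 15 core genes against that of the 17 regulatory genes in each library, with a dotted line of equality; right, log2 of their ratio in each library, with a line at the group mean. All libraries lie above the line of equality, and MP1 and MP2 have the highest ratios, 0.86 and 0.96, against 0.23 to 0.33 in WT.

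Gene length moved with these differences. Over the 17277 genes tested, the log2 fold change fell with the gene's merged exon length (Spearman's rho -0.297, a correlation across genes, which are not independent replicates). The lowest regulatory genes are long, with 7265 bases of merged exons for Psmd1, 6383 for Psmd11 and 4038 for Psmd2, against 1951 bases for the median core gene and 2820 for the median regulatory gene. Of the 7 longest tested members, these 3 and the chaperone gene Psmd5 (7230 bases, -0.42) had negative log2 fold changes. The other 3, Psmc2 (5031 bases, 0.05), Psmd3 (4967 bases, 0.15) and Psmd9 (7248 bases, 0.40), had positive values. The same correlation was -0.29 over the 35 members, -0.19 over the 15 core genes and -0.23 over the 17 regulatory genes. Over the 35 members it was -0.38 within the shared label code and -0.10 in MP4 to MP10. With the trend of all genes removed, as in the next values, it was 0.18 over the 35 members, 0.42 over the core genes and 0.07 over the regulatory genes. With each library's trend in length removed, the median log2 fold change was 0.68 for the core and 0.59 for the regulatory genes, and Psmd11 and Psmd1 stood at 0.08 and 0.18. That fit called 1 member higher, Psma7, beside 10.4% of all genes, and 0 lower, beside 10.3%. The core to regulatory difference was then 0.15 on the log2 scale. The part of RNA fragmentation, or of any other property of the libraries, in this relation was not tested.

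Scaling set the common level of the members. With median-of-ratios scaling the median log2 fold change was 0.99 for the core and 0.73 for the regulatory genes, while the median of all genes moved to -0.02. That scaling called 0 members higher and 0 lower (limma), beside 7.48% and 10.9% of all genes, and at an unadjusted P value under 0.05 it gave 4 members higher, beside 15.1% of all genes, and 0 lower, beside 18.5%. Of the 35 members, 11 had negative log2 fold changes in the deposited scale, and 2 did with this scaling. Limma-voom gave medians of 1.01 and 0.75, with 1 member higher, Psma7, beside 16.0% of all genes, and 0 lower, beside 17.5%. Quantile normalization also called Psma7, 1 member beside 11.0% of all genes, and 0 lower, beside 12.1%. Relative to the median of all genes in the deposited scale, the core stood at 0.84 and the regulatory particle at 0.59. With quantile normalization these distances were smaller, at 0.30 for the core and 0.07 for the regulatory particle.

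Subunits of the assembled core are present in equal copies, yet their RNA levels per length differed. In each WT library the highest and lowest of the 14 constitutive core genes differed 8.91- to 9.46-fold in TPM, from Psmb1 at 803 ± 71.3 (SD, n = 3) to Psmb7 at 87.4 ± 10.2. In the tumors this ratio was 8.38 to 21.8. When TPM was rescaled to the length of each gene's principal transcript, a choice made after seeing the data, the WT ratio was 5.16 to 6.06, with Psmb6 and Psma3 at the extremes, and the ratio in the tumors 7.68 to 21.9. Tumors and WT ovaries thus overlapped with the deposited lengths, whereas with the principal transcript every tumor was above every WT ovary, and the order of the levels changed too. The table's length for Psmb1 is 1036 bases, whereas merged exons in GENCODE release M21 span 4595, which makes its TPM uncertain. For Psma8 these lengths are 1693 and 2494 bases, with the same limit. The 17 regulatory genes differed 5.42- to 6.43-fold in WT and 5.21- to 30.0-fold in the tumors, and 2.58- to 3.44-fold and 3.10- to 24.5-fold with the length of the principal transcript.

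The immunoproteasome genes did not pass the test in either direction. Psmb8 was at 19.6, 18.9 and 27.1 TPM in WT and 1.56 to 32.0 TPM, median 7.49, in MP, with 7 tumors below and 2 above the WT range (log2 fold change -1.20 ± 0.69, limma, adjusted P = 0.233). Psmb9 was at 10.5, 11.4 and 14.1 TPM in WT and 0.971 to 30.8 TPM, median 4.22, in MP (-0.97 ± 0.73, limma, adjusted P = 0.358). Psmb10 was at 77.9, 65.0 and 89.1 TPM in WT and 61.1 to 267 TPM, median 113, in MP, with 7 tumors above the WT range (0.61 ± 0.41, limma, adjusted P = 0.299). Within the shared label code Psmb8 fell by 1.64 on the log2 scale (limma, adjusted P = 0.00575), in a fit that called 57.3% of all genes lower with a median of -1.19. The replicate block also called Psmb8 lower, beside 56.9% of all genes, and the call was lost with label code as a covariate (limma, adjusted P = 0.107).

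Each immunoproteasome subunit was then set against the constitutive subunit it replaces. The log2 ratio of Psmb8 to Psmb5 was -2.85 ± 0.39 (SD, n = 3) in WT and -4.32 ± 1.58 (n = 10) in MP, a difference of -1.47 (exact permutation test, 2-sided, P = 0.164, adjusted over the 3 ratios P = 0.164). For Psmb9 to Psmb6 the difference was -1.22 (exact permutation test, P = 0.15, adjusted P = 0.164), and for Psmb10 to Psmb7 it was 0.48 (exact permutation test, P = 0.15, adjusted P = 0.164). The smallest P value that this design allows is 0.0035, and 0.1 within the shared label code, where no ratio could pass. The difference for Psmb8 to Psmb5 was -2.33 there and -0.67 with quantile normalization, and that for Psmb9 to Psmb6 was -0.28 with quantile normalization. The difference for Psmb10 to Psmb7 was 0.27 without WT2 and 0.24 with the length trend removed. Interferon-induced genes, 5 in the list, summed to 181 to 264 TPM in WT and 8.99 to 138 TPM in MP, leukocyte markers, 6 in the list, to 101 to 248 TPM and 30.3 to 166 TPM, and their part in the ratios was not tested.

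**Figure D4:**
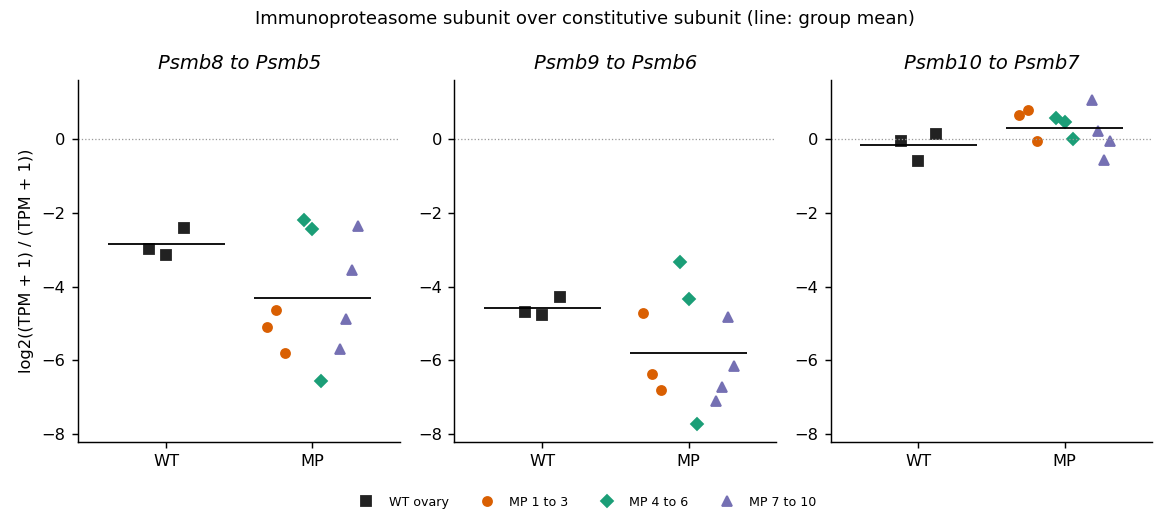
Log2 ratio of each immunoproteasome gene to the constitutive gene it replaces, computed from TPM + 1, in the 3 WT and 10 MP libraries, with a line at the group mean. Tumors spread from -6.54 to -2.21 for Psmb8 to Psmb5 and lie on both sides of the WT values in the left and middle panels.

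Of 32 further genes of the pathway, in 7 lists, 1 rose, beside 2.51% of all genes, and 1 fell, beside 14.3%. Every tumor above every WT ovary was seen for 3.02% of all genes and every tumor below for 16.4%, which is the background for the separations named here. Within the shared label code 4 of the 32 rose, beside 6.44% of all genes, and 16 fell, beside 57.3%. Among 5 chaperones of core assembly, all had positive log2 fold changes, with a median of 1.15, and 1 passed. With limma-voom 4 of the 5 passed, higher, beside 16.0% of all genes, and in MP4 to MP10 2 did, beside 4.68%. Psmg3 had all 10 tumors above the WT range, at 20.9 to 83.0 TPM against 14.5 to 18.1 TPM. Psmg2 and Psmg4 had 9 tumors above it and Pomp 6. Psmg1 (chr16:95979933-95990960), a chaperone that starts the alpha ring, rose by 1.38 ± 0.39 (limma, adjusted P = 0.0243), from 63.0, 79.6 and 67.0 TPM in WT to 106 to 315 TPM, median 242, with all 10 tumors above the WT range. Its call was lost without any 1 of the 3 WT ovaries (limma, adjusted P = 0.0746 to 0.118) and without the filter on low values (adjusted P = 0.130). Among the 4 regulators, all had negative log2 fold changes, with a median of -1.26, and 1 passed. Within the shared label code all 4 passed, lower, with a median of -2.37, beside 57.3% of all genes and their median of -1.19. Nfe2l1 (chr11:96817414-96829968), the transcription factor that induces proteasome genes when the proteasome is inhibited, fell by 2.91 ± 0.84 on the log2 scale (limma, adjusted P = 0.0282), from 359, 409 and 365 TPM to 4.99 to 190 TPM, median 66.7, and no tumor overlapped the WT range. Its call too was lost without any 1 of the WT ovaries (limma, adjusted P = 0.105 to 0.112) and without the filter (adjusted P = 0.140). MP1 to MP3 were at 4.99 to 19.02 TPM, and Nfe2l1 fell by 2.02 in MP4 to MP10 (limma, adjusted P = 0.00415).

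The 9 genes for ubiquitin, its activation and its shuttles had a median log2 fold change of -0.64, close to the -0.58 of all genes, with 0 higher and 0 lower. With median-of-ratios scaling the median was 0.07 and with limma-voom 0.09, and 7 of the 9 values were positive in each. Both fits called 1 of the 9 higher, Ubqln4, beside 7.48% and 16.0% of all genes, and 0 lower, beside 10.9% and 17.5%. Rps27a, which encodes ubiquitin fused to a ribosomal protein, was the highest at 1.03 ± 0.39 (limma, adjusted P = 0.081), with 764 to 895 TPM in WT and 796 to 3735 TPM, median 1770, in MP, and 9 of 10 tumors were above the WT range. Genes of ribosomal proteins have near-identical copies, whose reads the counting could split or drop, so its values are uncertain. Ubqln2, a shuttle factor, was the lowest at -1.27 ± 0.78 (limma, adjusted P = 0.261), with 73.3 to 80.8 TPM in WT and 7.10 to 118 TPM, median 42.6, in MP. Without MP9 Rps27a passed, 1 of the 9 higher beside 2.89% of all genes. Within the shared label code 1 of the 9 rose, Rps27a, beside 6.44% of all genes. In the same fit 7 fell, Ubqln2 and Ubqln4 among them, beside 57.3% of all genes.

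The 4 activators had negative log2 fold changes in the deposited scale, with a median of -0.69 beside -0.58 for all genes, and no call. With median-of-ratios scaling and with limma-voom their medians were 0.03 and 0.02, with 2 of the 4 positive. Psme4, a cap of the core particle, was the lowest, -1.17 ± 0.39 (limma, adjusted P = 0.0508), at 79.0 to 87.2 TPM in WT and 20.5 to 64.7 TPM in MP with no overlap, and Psme3 the highest, -0.25 ± 0.53 (adjusted P = 0.751). The log2 fold change of Psme4 was -0.24 with the length trend removed and -0.45 with median-of-ratios scaling, whereas it passed with plain limma and without MP2, MP5, MP6, MP8 or MP10, with adjusted P values of 0.0408 to 0.173 over the libraries left out (limma). Psme4 and Psme3 both passed within the shared label code, where they fell by 1.66 and 1.36 on the log2 scale (limma, adjusted P = 0.00261 and 0.0465) beside a median of -1.19 for all genes, and also with label code as a covariate and with the replicate block. The inhibitor Psmf1 was at 27.3 to 29.2 TPM in WT and 2.82 to 27.6 TPM in MP (-0.97 ± 0.56, limma, adjusted P = 0.237), and passed, lower, in the same 3 fits. Of the 6 genes for proteins associated with the regulatory particle 0 passed, from Ube3c at -0.43 ± 0.47 to the deubiquitinase gene Uchl5 at 0.98 ± 0.49 (limma, adjusted P = 0.531 and 0.177). Ube3c passed, lower, in those 3 fits, and Uchl5 passed, higher, with quantile normalization, limma-voom and the length trend removed.

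**Figure D5:**
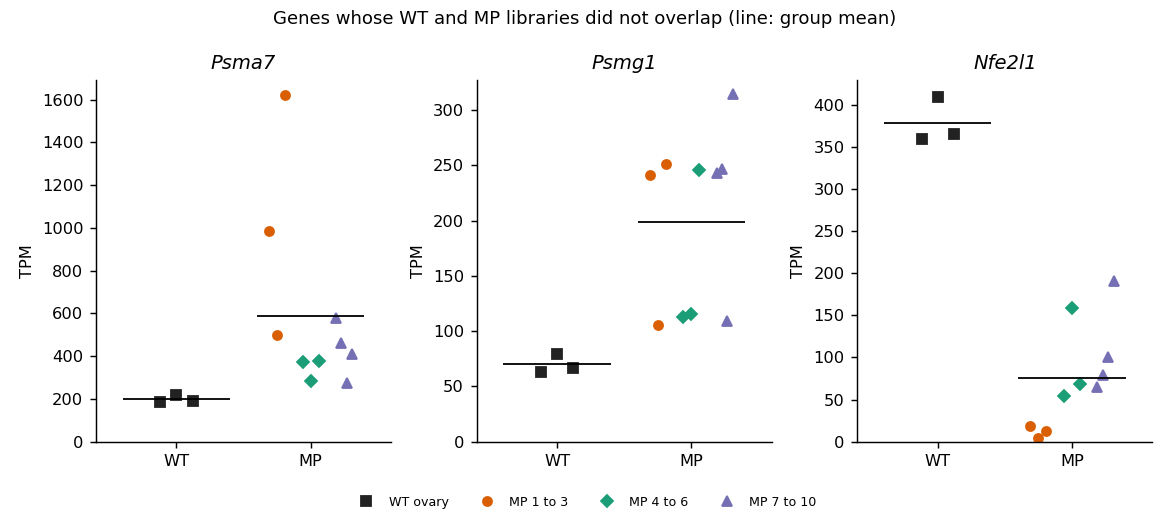
TPM of Psma7, Psmg1 and Nfe2l1 in each WT and MP library, on linear axes from 0, with a line at the group mean. In all 3 panels the tumors lie on a single side of the WT ovaries; for Nfe2l1, MP1 to MP3 lie at 4.99 to 19.02 TPM.

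The promoters of the members were searched for 3 motifs, among them that of Nfe2l1, and binding was not measured. Of the 36 members, 29 had a RefSeq promoter on GRCm38.p6, 31 promoters in all, and the 250 bases before the start site were searched on both strands. TGACNNNGC, the core of the antioxidant response element that Nfe2l1 recognises, was found in 5 member promoters, 16.1%, beside 10.2% of 32851 promoters of the same length. CCAAT was found in 12, 38.7% beside 33.9%, and CACGTG, the E-box that MYC recognises, in 2, 6.45% beside 6.02%. The matches of different motifs do not overlap in any member promoter. These shares are descriptions and carry no test. The sequences below are those of Psma7, the member with the highest log2 fold change, of the catalytic subunit genes Psmb5 and Psmb6, which hold TGACNNNGC 47 and 9 bases before the start, and of Psmd11, the lowest regulatory gene, which holds none of the 3 motifs. They run 5′ to 3′ on the strand of the gene, with CCAAT or TGACNNNGC in capitals.
Psma7, chr2:180042465-180042714, minus strand: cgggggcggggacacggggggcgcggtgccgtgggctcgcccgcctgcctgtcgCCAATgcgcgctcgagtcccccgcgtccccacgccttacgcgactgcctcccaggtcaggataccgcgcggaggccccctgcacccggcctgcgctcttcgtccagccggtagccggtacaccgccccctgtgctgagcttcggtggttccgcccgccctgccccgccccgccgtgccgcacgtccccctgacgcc
Psmb5, chr14:54617996-54618245, minus strand: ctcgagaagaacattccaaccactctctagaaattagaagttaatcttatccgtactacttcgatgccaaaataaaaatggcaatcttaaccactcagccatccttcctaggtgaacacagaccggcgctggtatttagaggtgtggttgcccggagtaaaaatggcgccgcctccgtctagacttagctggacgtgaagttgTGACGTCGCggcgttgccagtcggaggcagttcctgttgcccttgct
Psmb6, chr11:70525107-70525356, plus strand: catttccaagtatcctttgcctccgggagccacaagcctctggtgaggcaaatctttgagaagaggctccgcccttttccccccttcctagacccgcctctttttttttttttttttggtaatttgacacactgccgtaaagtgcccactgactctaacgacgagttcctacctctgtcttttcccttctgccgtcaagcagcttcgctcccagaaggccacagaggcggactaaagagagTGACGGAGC
Psmd11, chr11:80428365-80428614, plus strand: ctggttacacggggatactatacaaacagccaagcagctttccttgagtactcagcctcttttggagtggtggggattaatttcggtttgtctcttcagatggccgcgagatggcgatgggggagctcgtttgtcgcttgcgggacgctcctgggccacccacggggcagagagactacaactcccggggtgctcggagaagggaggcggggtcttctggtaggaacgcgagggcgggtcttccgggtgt
Among the 5 members with TGACNNNGC, log2 fold changes in the tumors were 0.26 for Psmb5, 0.25 for Psmb6, 0.01 for Psmc6, 0.11 for Psmd12 and 0.40 for Psmd9, beside a median of 0.11 over all 35 members.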

How the data were processed

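RNA-seq of 3 WT ovaries and 10 MP tumors was analysed (76-base single-end reads). Per the labels, the submitters' processing notes name FastQC 0.11.5, Trimmomatic 0.36, STAR 2.5.3a, featureCounts 1.6.3 and the builds mm10 and GRCm38; the extraction protocol names a human build and RPKM instead, which the mouse gene table does not match. The authors deposited TPM for 53465 genes. TPM times length gave whole reads for 100% of values within 0.01.

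Genes with at least 1 TPM in at least 3 libraries were tested on log2(TPM + 1), which understates the change of low genes, with limma 3.58.1 (trended, robust; R 4.3.3) over all 13 libraries, Benjamini-Hochberg over 17277 genes, threshold 0.05. Ratios were tested by exact permutation (scipy 1.17.1). Alternatives covered the pseudocount (0.1), filters, scalings, gene length, limma-voom, label codes, the replicate block and each library left out. The fit was tested on simulated data. The lengths and overlaps of genes came from GENCODE M21.

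Members and lists were chosen with earlier results of these data known. All members are accounted for; named are the catalytic subunits, the largest and smallest log2 fold change in each subgroup, genes past the threshold, and in lists without any the extremes. Libraries are the replicates; the labels do not state that each came from a separate animal, so P values measure the spread between these samples, and depth was lower in the tumors. No libraries agreed within sampling noise (chi-square per degree of freedom 30.3 to 633 within groups). 2 genes of the lists are not reported here.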

Additional observations from a re-analysis of the deposited data

Results flagged for a closer look

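Among the 10 MP tumors, 72 measures (members, genes of the pathway lists and ratios) were examined for a library far from the others on the log2 scale, by the gap to its nearest neighbour over the whole range. In 7 of them MP2 lay far below the other tumors, whereas chance flags about 1 in 20 groups, or 3.6 of 72. The measures share 1 library and are not independent. MP2 also held 55.1% of its TPM in its 10 most abundant genes, and the part of that in these values was not tested.

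2 of the 7 were proteasome subunit genes. Psmd1 was at 24.7 TPM in MP2, against 48.1 to 88.9 TPM in the other tumors and 86.6 to 116 TPM in WT. Psmc4, an ATPase of the base, was at 68.6 TPM, against 154 to 319 TPM in the other tumors and 185 to 227 TPM in WT. Of the pathway genes, the activator Psme3 was at 29.0 TPM (others 81.9 to 247), the assembly chaperone Psmg2 at 94.7 TPM (others 171 to 238), the ubiquitin receptor gene Adrm1 at 4.64 TPM (others 16.0 to 54.3) and Sem1 at 33.4 TPM (others 77.6 to 148). The ubiquitin gene Ubb was at 116 TPM (others 329 to 649).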

How the results depend on the processing

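The 0 members higher became 1 with quantile normalization, with the length trend removed, with limma-voom and in MP4 to MP10, a subset chosen after seeing the data (Psma7 each time), 5 within the shared label code and with label code as a covariate, and 4 with the replicate block. The 0 members lower became 4, 4 and 2 in the last 3 fits, where the block called 6.34% of all genes higher and 56.9% lower. Leaving out each library in turn gave 0 to 1 higher, beside 0.544% to 3.68% of all genes, and 0 to 0 lower, beside 6.70% to 18.9%. The core median log2 fold change of 0.26 moved to 0.99 with median-of-ratios scaling and 1.01 with limma-voom, and the regulatory median of 0.01 to 0.73 and 0.75 there and 0.59 with the length trend removed. Within the shared label code, and with the covariate or the block, they were 0.56 and -0.05. Quantile normalization gave 0.38 for the core and 0.15 for the regulatory genes, beside 0.08 for all genes. Leaving out libraries gave 0.15 to 0.38 and -0.05 to 0.13. The 2 pathway genes called, 1 in each direction, became 0 without a filter on low values (beside 0.185% higher and 4.11% lower of all genes) and 4 with plain limma (1 higher, 3 lower, beside 2.58% and 14.6% of all genes) and in MP4 to MP10 (2 and 2, beside 4.68% and 13.5% of all genes). They became 5 with median-of-ratios scaling (4 higher, 1 lower, beside 7.48% and 10.9%), 6 with the length trend removed (5 and 1, beside 10.4% and 10.3%), 7 with quantile normalization (5 and 2, beside 11.0% and 12.1%) and 8 with limma-voom (7 and 1, beside 16.0% and 17.5%). They became 20 within the shared label code, with the covariate and with the block, each time 4 higher, beside 5.17% to 6.44% of all genes, and 16 lower, beside 49.4% to 57.3%, and 0 to 4 with a library left out. The cause of these shifts was not tested. Tests with no filter adjust over 53465 genes.

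Of 35 members, 11 had negative log2 fold changes in the deposited scale, and 2 did with median-of-ratios scaling and with limma-voom, 1 with the length trend removed and 7 with quantile normalization. Under the first 2 and the length fit Psma2, Psmd1 and Psmd2 were among those that turned. Of the genes named by the rule, the sign turned for Psmc1 with median-of-ratios scaling (0.46), the length trend removed (0.18) and limma-voom (0.47), for Psmc3 without MP1 or MP3 (-0.014 and -0.031) and in MP4 to MP10 (-0.044), for Psmd5 with those 3 scalings (0.28, 0.46 and 0.30) and quantile normalization (0.17), for Psmd11 with the length trend removed (0.083) and for Psmb9 with quantile normalization (0.020). It turned for Psme3 (0.47, 0.32 and 0.48, and 0.22 in MP4 to MP10) and Ube3c (0.27, 0.55 and 0.29, and 0.18 with quantile normalization). The core to regulatory difference kept its sign at 0.11 to 0.44. It is taken from a ratio within each library, so the pseudocount, the filters and median-of-ratios scaling left it at 0.21 by construction. The 3 immunoproteasome ratios kept their signs with no P value under the threshold in any fit run for them. Of these fits, the fit within the shared label code could not give the ratios a P value below 0.1. Their size did move, for Psmb8 to Psmb5 from -1.47 to -0.67 and for Psmb9 to Psmb6 from -1.22 to -0.28 with quantile normalization, and for Psmb10 to Psmb7 from 0.48 to 0.27 without WT2. The replicate block used WT 1 to 3 and MP 1 to 3. Deviations of libraries of the same number correlated at -0.05, 0.02 and -0.04, and those of different numbers at -0.08 to 0.07. With deviations from only 3 WT libraries, these values can neither show nor exclude a pairing of the samples by number. Depth in the tumors limits Psma8, which had 0 reads in 3 of them, and the WT group of 3 limits every test.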
